A study of Homo sapiens with 9 samples.

Results

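The comparison described here set HK-2 cells that had received a MYDGF adenovirus together with aristolochic acid against untreated HK-2 cells, gene by gene. Its members are 6 of the 9 libraries of the series, 3 per group, taken by the group in their labels, and 13704 of the 19407 protein-coding genes in the deposited table, those with enough counts to be tested; the other 5703 were not tested. HK-2 is an established, papillomavirus-transformed line of human proximal tubule cells, and the labels give renal cortex as its tissue. Untreated cells (libraries 1, 2 and 3) have the genotype WT and received no aristolochic acid. The MYDGF group (libraries 1, 3 and 4) has the genotype overexpression of MYDGF, delivered by an adenovirus (vector GV314), and was exposed to aristolochic acid at 5 µg/ml for 48 h. A further 3 WT libraries (1, 4 and 6) with the same exposure and no stated virus served to tell which changes remained and which were new. Medium with 5% fetal bovine serum and 12 h of serum starvation are stated for all groups. No empty adenovirus is named for any group, so the virus, the vector and MYDGF cannot be told apart in these values, nor can MYDGF and aristolochic acid in this pair alone. Treatment entries of untreated 2 and MYDGF 3 read HK-3, and those of untreated 3 and MYDGF 4 read HK-4, while the cell line entry reads HK-2 throughout; this was not tested. The labels do not state separate cultures, so the p-values cover the spread among these libraries alone, and that spread may be technical.

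MYDGF, myeloid-derived growth factor, is a small protein of the endoplasmic reticulum and Golgi that is also secreted, and its C-terminal retention signal is of the kind bound by KDEL receptors. Aristolochic acid is a plant nephrotoxin that proximal tubule cells take up through organic anion transporters and reduce to forms that bind DNA at purines, which stalls RNA polymerase and replication forks. The series addresses how tubular MYDGF relates to mitochondrial homeostasis in chronic kidney disease. The pair examined here asks how far cells with both agents stood from cells with neither.

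Totals ran from 12005218 to 13426617 counts in untreated libraries and from 12860693 to 14254786 in the MYDGF group. The mitochondrial share of counts was 6.49 to 6.84% without treatment and 4.44 to 4.71% in the MYDGF group. In a principal component analysis of the 6 libraries, the first component held 73.3% of the variance and separated the groups, and the second, with 7.47%, placed MYDGF 3 at 38.3 and MYDGF 1 at -29.7. Levels below are counts per 1000000 (CPM) after scaling, changes are log2 fold changes with the standard error (SE) of the fit, and a gene was called when its adjusted p from edgeR's quasi-likelihood test with Benjamini-Hochberg adjustment was under 0.05. Words such as rose and fell are used of called genes.

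MYDGF itself (19:4641374-4670362 in GRCh38, minus strand) read 125, 131 and 123 CPM in untreated libraries 1 to 3 and 663, 510 and 599 CPM in MYDGF libraries 1, 3 and 4. Every MYDGF library was far above every untreated one. The change was 2.23 (SE 0.13, edgeR adjusted p = 6.1e-06). In cells given aristolochic acid without the virus MYDGF read 74.2 to 105 CPM and had fallen (-0.49). The counts do not separate the viral from the endogenous transcript.

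Across protein-coding genes, 3584 rose (26.2%) and 3889 fell (28.4%), so that 54.5% of those tested were called. At least 2-fold, 1193 rose (8.71%) and 1021 fell (7.45%). The CPM of both groups did not overlap for 9212 genes (67.2%). Most changes were modest: called risers had a median of 0.70 and called fallers of -0.67, against -0.03 over all protein-coding genes tested. Genes under 1 CPM in untreated cells, called near-silent below, made up 577 of the 1193 at least 2-fold risers (48.4%), which left 616 without them. Leaving out 1 of the 9 libraries at a time moved the risers between 3081 and 3941 and the fallers between 3150 and 4086.

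**Figure D1:**
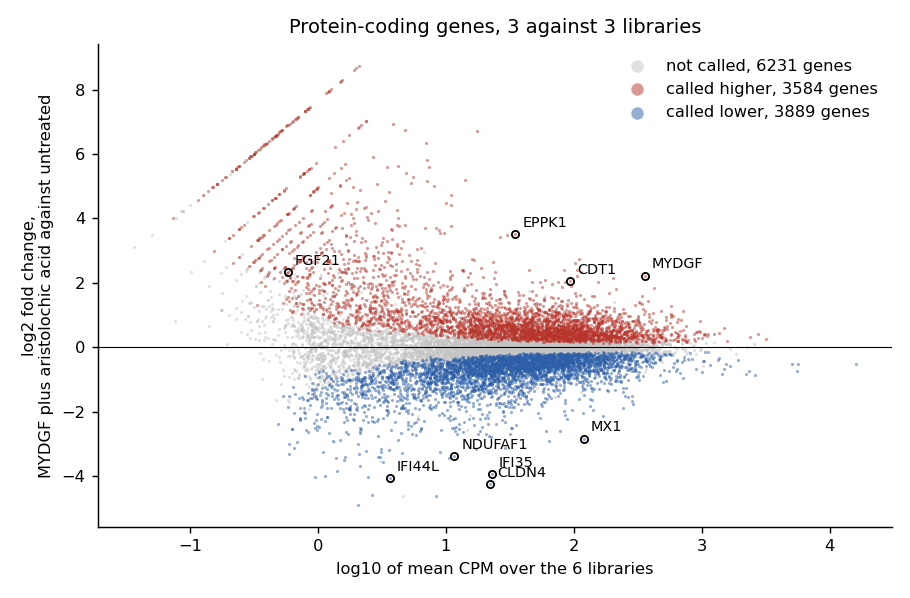
Log2 fold change of each protein-coding gene (MYDGF plus aristolochic acid against untreated, vertical axis) against the log10 of its mean CPM over the 6 libraries (horizontal axis), 1 point per gene, with 3584 called higher in red, 3889 called lower in blue and the rest in grey. The highest folds sit at the left among genes of low level, in diagonal lines made by genes with 0 or few counts in untreated cells, while MYDGF rose at a high level and CLDN4, IFI35 and MX1 fell from medium or high ones.

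A gene was counted as remaining changed when it was called in the same direction in this pair and in aristolochic acid against untreated. It was counted as newly changed when it was not called with aristolochic acid alone but was called in the same direction between both treated groups, which is the test of the difference. The 2 comparisons with untreated cells share the untreated libraries, so their counts are not independent. Of the 3584 risers, 2746 remained (76.6%, or 20% of genes tested), 436 were new (12.2%, or 3.18% of genes tested), 70 had fallen with aristolochic acid alone, and for 332 the difference between both treated groups was not called. Of the 3889 fallers, 3066 remained (78.8%, or 22.4% of genes tested), 379 were new (9.75%, or 2.77% of genes tested), 61 had risen with aristolochic acid alone, and for 383 the difference was not called. For comparison, 61.3% of protein-coding genes were called in aristolochic acid against untreated (28.4% higher, 32.9% lower) and 31.7% between both treated groups (16.6% higher with MYDGF, 15% lower).

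Remaining risers had a median change of 0.81 in this pair and 0.82 with aristolochic acid alone, and remaining fallers of -0.72 and -0.85. Between both treated groups, 705 of the remaining risers were lower with MYDGF, 257 were higher and 1784 were not called. Of the remaining fallers, 585 were higher with MYDGF, 209 were lower and 2272 were not called. In the other direction, 1080 of the 3887 genes that had risen with aristolochic acid (27.8%) and 1372 of the 4508 that had fallen (30.4%) were not called in this pair. Among them 586 and 782 also differed between both treated groups. IDH2, a mitochondrial isocitrate dehydrogenase, belonged to the latter. It read 107, 108 and 104 CPM without treatment, 42.6, 24.1 and 31.9 in the aristolochic acid group and 81.7, 96.7 and 90.5 in the MYDGF group. Its MYDGF libraries lay below the untreated ones without overlap, but the change of -0.25 (SE 0.17, edgeR adjusted p = 0.23) was not called. In a fit of the 6 libraries alone the IDH2 change was called (-0.24, edgeR adjusted p = 0.0243).

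**Figure D2:**
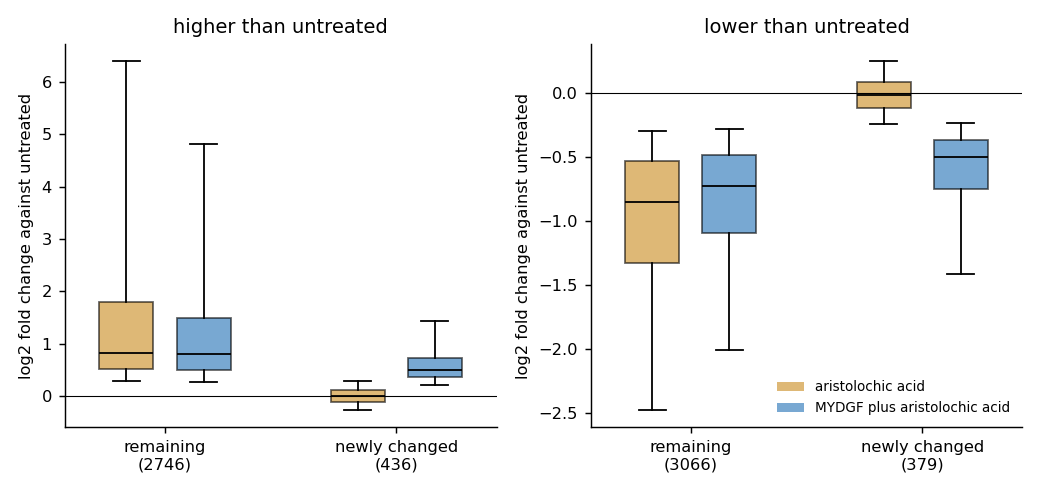
Log2 fold change against untreated of remaining and newly changed protein-coding genes, for aristolochic acid (ochre) and MYDGF plus aristolochic acid (blue), with risers on the left and fallers on the right. Boxes span the quartiles with the median as a line and whiskers reach the 5th and 95th percentiles over genes; the classes were defined by these calls, so newly changed genes lie near 0 with aristolochic acid by construction.

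The largest falls among genes of at least 10 CPM held interferon-stimulated genes, an epithelial claudin and a KDEL receptor. CLDN4, a tight junction claudin (7:73799542-73832690, plus strand), read 41.8, 42.4 and 42.8 CPM in untreated libraries and 2.53, 2.42 and 1.70 in the MYDGF group. All MYDGF libraries were low, while aristolochic acid alone left 21.6 to 31.9 CPM. CLDN4 fell by 4.26 in this pair (SE 0.20, adjusted p = 2.2e-06), by 0.72 with aristolochic acid alone and by 3.53 between both treated groups. NDUFAF1, an assembly factor of respiratory complex I, went from 18.9, 23.7 and 20.7 CPM to 1.84, 2.65 and 1.56. It fell by 3.39 in this pair and by 2.71 with aristolochic acid alone. APOL1, an apolipoprotein L gene with kidney risk alleles, fell by 3.43, and CUL7, a cullin ubiquitin ligase scaffold, by 2.91. For APOL1, NDUFAF1 and CUL7 the difference between both treated groups was not called.

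Among genes of at least 10 CPM on average and without overlap of the groups, 5 of the 8 largest rises were of genes near silence in untreated cells. HTR1F, a serotonin receptor, read 0.555 to 1.06 CPM in untreated libraries and 32.6, 21.6 and 28.7 in the MYDGF group. PYGM, muscle glycogen phosphorylase, rose by 4.72, DNAH17, an axonemal dynein, by 4.49, and CHD5, a chromatin remodeller, by 4.41. The nearest active gene before them on the same strand ends 4.6 kb away for PYGM, 4.7 kb for CHD5, 96.7 kb for DNAH17, 537.1 kb for HTR1F and 1015.5 kb for AGPAT1. EPPK1, an epiplakin of epithelial cells, went from 5.94, 5.96 and 4.99 CPM to 80.1, 47.2 and 65.0 and rose by 3.51. COL7A1, the anchoring fibril collagen, went from 6.26, 4.70 and 3.63 CPM to 71.6, 41.8 and 51.7, a rise of 3.5. Both had risen further with aristolochic acid alone (4.99 and 4.59), and both differed between the treated groups (-1.48 and -1.09). AGPAT1 had the largest fold under the same limits, 6.72, with an SE of 1.67. In untreated cells it read under 1 CPM and in the MYDGF group 33.1 to 36.8, but in the aristolochic acid group a single library was high, and it lies in the MHC region, where near-identical haplotype copies could share its reads, so its value is uncertain.

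**Figure D3:**
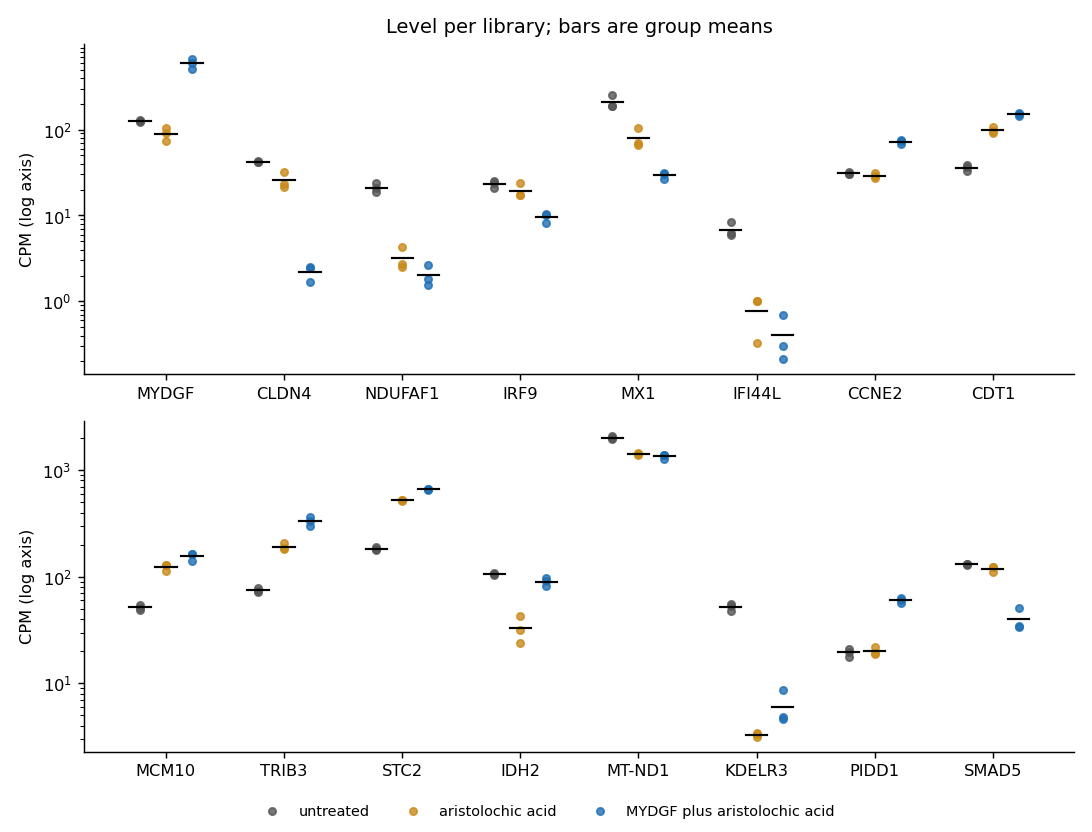
CPM of 16 genes in each of the 9 libraries (log axis), with untreated in grey, aristolochic acid in ochre and MYDGF plus aristolochic acid in blue; each point is 1 library and each black bar a group mean. CLDN4, CCNE2, PIDD1 and SMAD5 stood apart in the MYDGF group, IDH2 stood apart with aristolochic acid, and NDUFAF1, MT-ND1 and KDELR3 were low in both treated groups.

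Newly changed genes carried smaller folds: the 436 new risers had a median of 0.50 and the 379 new fallers of -0.50, with 59 and 47 of them at least 2-fold. Leaving out 1 library moved the new risers between 325 and 498 and the new fallers between 255 and 433. At an adjusted p under 0.01 they were 243 and 197, and with a replicate block 2 and 2. Whether replicate numbers pair the libraries of both treated groups was not tested. PIDD1, a p53-induced scaffold of caspase-2 activation, had the largest new rise among genes of at least 10 CPM without overlap. It read 17.8, 21.2 and 19.6 CPM without treatment, 19.0 to 22.1 in the aristolochic acid group, and 56.7, 60.7 and 63.0 with MYDGF, a change of 1.62 (SE 0.10, edgeR adjusted p = 6.5e-06). CCNE2, cyclin E2 of the G1 to S transition, read 30.3, 30.7 and 31.9 CPM in untreated libraries and 74.1, 67.8 and 75.4 in the MYDGF group. Its change was 1.23 in this pair and -0.08 with aristolochic acid alone. NAGS, the mitochondrial enzyme that makes the activator of the urea cycle, rose by 1.44, SPHK1, a sphingosine kinase, by 1.22, FLAD1, which makes FAD, by 1.17, CBARP, a regulator of calcium channels, by 1.34, and CDR2L by 1.12. TSN, an RNA-binding translin, rose by 1.18, but its MYDGF libraries were uneven at 41.1, 92.4 and 88.8 CPM.

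SMAD5, a signal transducer of bone morphogenetic proteins, had the largest new fall under the same limits (5:136132845-136188747, plus strand). It read 133, 129 and 131 CPM without treatment, 110 to 124 in the aristolochic acid group, and 51.0, 33.7 and 34.5 with MYDGF, a change of -1.72 (SE 0.15, edgeR adjusted p = 2.8e-05). MYDGF libraries were all below the others. DNAJC16, a J-domain protein, fell by 1.44, GPR37, an orphan receptor, by 1.43, PPFIA4, a liprin, by 1.37, CELSR2, an adhesion cadherin, by 1.32, and CHMP7, an ESCRT-III factor at the nuclear envelope, changed by -1.20. IRF9 and SP110 were interferon-related members of the same group. IRF9, a DNA-binding factor of the interferon response, went from 23.9, 25.5 and 21.1 CPM to 10.4, 10.2 and 8.27, a change of -1.28 in this pair and -0.27 with aristolochic acid alone.

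Interferon-stimulated genes are switched on when a complex that includes IRF9 binds the interferon-stimulated response element in their promoters, and cells hold a basal level without added interferon. Of 45 such genes, all tested, 40 fell, with a median of -1.58, against 28.4% of protein-coding genes and a median of -0.03. By edgeR none rose, with 0 at an unadjusted p under 0.05, 0 by DESeq2 and 0 by limma-voom. Aristolochic acid alone had lowered 35 of the 45 (median -1.29). Between both treated groups 17 were lower and 1 was higher. Without MYDGF 4, 1 member was called higher. Those not called were IFIT2, IFIT5, IFITM2, IRF1 and CMPK2, named after their values were seen.

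Promoter sequences show the element that many of these genes share. RefSeq starts (GRCh38.p14, 250 bases before to 50 after the start) were found for 34 of the 45 genes. Of the 34, 24 held TTTC and TTTC with any 2 bases between them, on either strand. Here and below, a gene was counted when any of its starts held a match. A match was found in 3.96% of the 11056 tested protein-coding genes with a promoter and in 3.57% of all 35116 promoters. Of the 24 genes with a match 23 fell, and of the 10 without one 8 fell. Among all 438 tested protein-coding genes with a match, 30.4% fell and 23.1% rose, near the shares over all genes. The 250 bases before the start are shown for the 4 members of largest fall that have a match there and a single start in the table, a choice made after values were seen; capitals mark each match.
IFI44L (chr1:78620198-78620447, plus strand): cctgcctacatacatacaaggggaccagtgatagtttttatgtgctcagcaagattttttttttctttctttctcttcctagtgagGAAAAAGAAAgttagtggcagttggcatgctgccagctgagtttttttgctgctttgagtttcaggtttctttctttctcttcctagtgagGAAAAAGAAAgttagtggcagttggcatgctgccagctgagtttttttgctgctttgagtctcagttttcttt
IFITM1 (chr11:313790-314039, plus strand): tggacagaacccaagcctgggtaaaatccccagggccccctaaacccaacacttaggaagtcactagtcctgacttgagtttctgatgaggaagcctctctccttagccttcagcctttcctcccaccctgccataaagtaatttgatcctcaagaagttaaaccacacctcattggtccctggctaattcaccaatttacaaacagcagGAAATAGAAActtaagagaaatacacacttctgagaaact
SAMD9 (chr7:93117980-93118229, minus strand): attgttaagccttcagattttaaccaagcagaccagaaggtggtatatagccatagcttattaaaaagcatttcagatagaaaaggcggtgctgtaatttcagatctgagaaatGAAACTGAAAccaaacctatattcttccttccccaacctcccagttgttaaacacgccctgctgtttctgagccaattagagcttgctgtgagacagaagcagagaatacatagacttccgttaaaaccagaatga
BST2 (chr19:17405631-17405880, minus strand): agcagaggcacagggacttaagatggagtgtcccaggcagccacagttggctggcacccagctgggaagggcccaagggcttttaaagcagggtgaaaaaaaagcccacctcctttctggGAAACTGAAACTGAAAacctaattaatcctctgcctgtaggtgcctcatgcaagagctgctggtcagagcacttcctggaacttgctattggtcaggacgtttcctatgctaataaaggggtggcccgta
IFI44L and BST2 hold 2 matches each, and in IFITM1 the match begins 40 bases before the start. A match is a description of letters, and binding was not measured here.

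The largest fall in this list was that of IFI44L. IFI44L, of unknown molecular role, went from 5.86, 6.21 and 8.47 CPM to 0.306, 0.703 and 0.212, a change of -4.06 (SE 0.44). IFI35 went from 43.2, 41.5 and 44.2 CPM to 2.76, 3.44 and 2.19, a change of -3.94 (SE 0.20, edgeR adjusted p = 3.5e-06). Both were low in every MYDGF library, and for neither was the difference between the treated groups called. MX1, an antiviral dynamin-like GTPase, read 187, 190 and 252 CPM without treatment, 79.8 on average in the aristolochic acid group, and 26.4, 31.6 and 30.3 with MYDGF. MX1 fell by 2.83 in this pair and by 1.44 between both treated groups. OAS1, which makes the 2-5A messenger of RNase L, fell by 3.17 and SAMD9L, a restriction factor, by 3.55, and both were lower than with aristolochic acid alone (-0.84 and -1.27). The newly lower members were IRF9, IFIH1, a sensor of double-stranded RNA, and ISG20, an exonuclease.

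MHC class I genes, which present peptides and are partly interferon-driven, moved less. Of 17 tested, 7 fell and 1 rose (median -0.27), against 28.4% lower and 26.2% higher over all protein-coding genes. ERAP2, a peptide-trimming aminopeptidase, fell by 0.94 and TAPBPL, a peptide editor, by 0.71. Class I genes have near-identical copies, so their counts are uncertain.

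NF-kB targets and cytokines went both ways: 11 of 31 tested rose and 10 fell (median 0.14). Both shares were not far above the 26.2% higher and 28.4% lower over all protein-coding genes. With aristolochic acid alone 19 had risen and 4 fallen (median 0.81). Between both treated groups 20 of the 31 were lower with MYDGF. CXCL8, the neutrophil chemokine interleukin 8, went from 25.2, 23.6 and 24.7 CPM in untreated libraries to 53.7, 41.1 and 48.3 with MYDGF. It stayed above untreated without overlap (0.96, SE 0.18) and far under the 197 CPM on average of aristolochic acid alone. TNFAIP3, a feedback inhibitor of NF-kB, rose by 1.54 and IL11, a cytokine linked to fibrosis, by 1.70. CSF2, a granulocyte-macrophage growth factor, read 5.07 to 8.27 CPM with MYDGF from at most 1.09 in untreated cells. CXCL6 fell by 1.93 and CXCL5 by 1.11, both neutrophil chemokines.

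Genes of DNA replication rose together. Of 40 tested, 32 rose and 1 fell (median 0.73), against 26.2% of protein-coding genes higher. Of the 32, 26 remained from aristolochic acid alone and 4 were new, and 19 of the 40 were higher between both treated groups. CDT1, a loader of the replicative helicase, went from 39.1, 36.4 and 32.8 CPM to 157, 145 and 150 (2.06, SE 0.09, adjusted p = 1.8e-06). CDC6, which loads the helicase with it, went from 95.02, 94.13 and 80.80 CPM to 289, 285 and 288, and MCM10, which activates it, from 54.6, 48.9 and 51.4 to 163, 141 and 162. In each case all MYDGF libraries were above 2-fold the untreated ones. MCM6, a helicase subunit, was the exception. It fell from 182, 183 and 183 CPM to 125, 130 and 137 (-0.48), and was new.

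E2F factors drive many of these genes at the start of S phase. Of the 35 members with a RefSeq promoter, 18 held TTTCCCGC or TTTGGCGC on either strand. A match was found in 4.46% of tested genes with a promoter and in 2.27% of all promoters. Of the 18 with a match 14 rose and 1 fell, and of the 17 without one 13 rose. Of all 493 tested genes with a match, 37.3% rose and 20.3% fell. The 3 members of largest rise with a match before a single start are shown, chosen after values were seen, with matches in capitals.
CDT1 (chr16:88803539-88803788, plus strand): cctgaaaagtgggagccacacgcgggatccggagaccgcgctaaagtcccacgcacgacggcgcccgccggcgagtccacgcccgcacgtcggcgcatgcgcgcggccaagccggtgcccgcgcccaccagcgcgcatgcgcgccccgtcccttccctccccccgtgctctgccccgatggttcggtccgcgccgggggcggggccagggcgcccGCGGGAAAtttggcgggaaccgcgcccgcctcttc
POLA1 (chrX:24693668-24693917, plus strand): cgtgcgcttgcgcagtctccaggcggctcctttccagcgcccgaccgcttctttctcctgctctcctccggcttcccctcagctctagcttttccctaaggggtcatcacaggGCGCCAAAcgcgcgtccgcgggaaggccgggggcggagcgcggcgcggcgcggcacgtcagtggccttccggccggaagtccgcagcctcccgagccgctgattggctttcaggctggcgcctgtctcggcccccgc
RFC3 (chr13:33817899-33818148, plus strand): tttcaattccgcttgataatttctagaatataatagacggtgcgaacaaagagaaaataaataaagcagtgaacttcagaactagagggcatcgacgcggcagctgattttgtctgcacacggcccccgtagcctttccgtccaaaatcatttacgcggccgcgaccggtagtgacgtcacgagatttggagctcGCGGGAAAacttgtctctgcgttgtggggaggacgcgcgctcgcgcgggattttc
POLA1 is the catalytic subunit of the priming polymerase and RFC3 a subunit of the clamp loader, and they changed by 1.38 and 1.19.

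Later phases of the cycle moved less evenly. Of 35 mitosis genes, 13 rose and 5 fell (median 0.08), against 26.2% higher and 28.4% lower over all protein-coding genes. NUSAP1 and TPX2, which organise spindle microtubules, rose by 0.74 and 0.63, and KIF20A, a kinesin of cytokinesis, fell by 0.54. Of 18 CDK inhibitors and D-type cyclins, 10 rose and 2 fell (median 0.44), with 1 lower without MYDGF 4 or without untreated 2. GADD45A, a growth arrest gene, went from 27.5, 30.0 and 28.1 CPM to 185, 200 and 184 (2.73), against 286 on average with aristolochic acid alone. CCND2, cyclin D2, rose by 1.44 and RBL2, the p130 pocket protein, fell by 0.90.

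DNA repair and p53 targets were mixed, and are read against 26.2% higher and 28.4% lower over all protein-coding genes. Of 40 repair genes 17 rose and 8 fell (median 0.22), with 5 lower without MYDGF 4 or without untreated 1. EXO1, an exonuclease of mismatch repair and resection, went from 48.6 ± 1.31 (SD, n = 3) CPM to 161, 149 and 160 (1.69). REV3L, the catalytic subunit of translesion polymerase zeta, rose by 1.37. XPC, which recognises bulky lesions outside transcribed strands, fell by 0.52. ERCC4, a nuclease of excision repair, was newly lower, with MYDGF 3 at 22.5 CPM apart from 13.1 and 10.6, and without MYDGF 1 the ERCC4 call was lost (edgeR adjusted p = 0.0526).

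Of 27 p53 targets tested, 12 rose and 6 fell (median 0.26, and -0.01 with aristolochic acid alone). Over all protein-coding genes 26.2% were higher and 28.4% lower. AEN, an apoptosis-enhancing nuclease, rose by 2.21 and BTG2, an antiproliferative factor, by 1.41. CDKN1A, the p21 inhibitor of CDKs, rose from 70.1, 69.9 and 76.6 CPM to 104, 214 and 221, with MYDGF 1 at roughly the level of aristolochic acid alone (110 to 122 CPM). GDF15, a stress-induced cytokine, went from 3.01, 3.94 and 4.46 CPM to 7.05, 13.0 and 9.61 and was new. TP53INP1, an autophagy and apoptosis factor, fell by 2.33, and RRM2B, a ribonucleotide reductase subunit, by 0.66. ZMAT3, an RNA-binding p53 target, fell by 0.54 although aristolochic acid alone had raised it by 0.23.

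Apoptosis and BCL2 family genes split 9 higher and 8 lower of 35 (median 0.08). This is near the 26.2% higher and 28.4% lower over all protein-coding genes. There were 5 higher without MYDGF 4, and 5 lower without MYDGF 1 or without untreated 1. TNFRSF10A, a TRAIL receptor, rose by 1.04 and CYCS, cytochrome c, by 0.78, while CASP6 fell by 1.28 and BOK, a BAX-like effector, by 1.21. XIAP, an inhibitor of caspases, was uneven among untreated libraries at 46.8, 64.0 and 14.8 CPM, and the MYDGF range of 14.6 to 16.8 overlaps them. The XIAP change of -1.38 was called, but not without MYDGF 1, MYDGF 4, untreated 1 or untreated 2 (edgeR adjusted p from 0.0509 to 0.0721) or under limma-voom (adjusted p = 0.0818).

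Transcripts of the mitochondrial chromosome fell, while 50 of 73 nuclear genes of oxidative phosphorylation were not called. All 13 protein-coding mRNAs of the mitochondrial chromosome fell (median -0.61), 12 of them also with aristolochic acid alone (median -0.70). MT-CYB, of complex III, read 3247, 3498 and 3379 CPM in untreated libraries and 1730, 2003 and 1833 in the MYDGF group. MT-ND2 and MT-ND5, of complex I, both fell by 0.84. These 13 shared the fall without overlap of the groups. Over all protein-coding genes tested 28.4% fell, and the groups did not overlap for 67.2%. Of 73 nuclear genes of oxidative phosphorylation, 8 rose and 15 fell (median -0.06), with 9 lower without MYDGF 4. Both shares are below the 26.2% higher and 28.4% lower over all protein-coding genes. Aristolochic acid alone had lowered 35 and raised 2 (median -0.28), and 22 were higher between both treated groups. COX8A, of complex IV, rose from 159, 161 and 177 CPM to 232, 251 and 242 (0.54) and was new. NDUFB7, of complex I, fell by 0.72 and COX7C, of complex IV, also by 0.72.

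Other mitochondrial functions moved by part. Of 39 genes of the mitochondrial ribosome and import 19 rose and 5 fell (median 0.22), with 3 lower without MYDGF 1 or without untreated 3. HSPA9, the import motor chaperone, went from 436, 446 and 468 CPM to 949, 1006 and 1007, TIMM44, its membrane anchor, rose by 1.26 and TOMM40, the outer membrane pore, by 0.99. Of 33 genes of biogenesis, dynamics and mitophagy 7 rose and 11 fell (median -0.09), near the 26.2% higher and 28.4% lower over all protein-coding genes. TFAM, which packages and transcribes mitochondrial DNA, rose from 64.0, 64.3 and 69.8 CPM to 101, 91.3 and 102. PINK1, a kinase that marks damaged mitochondria, fell by 1.12, BNIP3L, a mitophagy receptor, by 1.40 and MFN1, an outer membrane fusion GTPase, by 0.99.

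Of 31 genes of pyruvate and the TCA cycle 6 rose and 9 fell (median -0.12), near the 26.2% higher and 28.4% lower over all protein-coding genes. PDK2 and PDK4, kinases that restrain pyruvate dehydrogenase, fell by 1.63 and 1.22, PC, pyruvate carboxylase, by 1.03, while IDH3B and SUCLG1 rose by 0.61 and 0.59. Of 28 genes of fatty acid oxidation 5 rose and 13 fell (median -0.24), with 6 lower without MYDGF 1 or without MYDGF 4. ACADS, short-chain acyl-CoA dehydrogenase, fell by 1.61 and EHHADH, of peroxisomes, by 1.23, both further than with aristolochic acid alone (-0.79 and -0.62). CPT1A, which controls entry of fatty acids, rose by 0.48. Glycolysis and pentose phosphate genes split evenly, 6 higher and 6 lower of 27 (median 0.02), also near the shares over all protein-coding genes. PFKP, the platelet phosphofructokinase, rose by 0.63 and PFKM, the muscle form, fell by 0.76.

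Most amino acid stress genes tested were higher. Of 33 targets of ATF4, the transcription factor of the integrated stress response, 24 rose and 2 fell (median 0.71, and 0.70 with aristolochic acid alone), 18 of them remaining and 4 new. TRIB3, a pseudokinase that feeds back on ATF4, went from 73.2, 72.5 and 77.8 CPM to 297, 366 and 335 (2.16). STC2, a secreted glycoprotein, went from 180, 180 and 189 CPM to 661, 661 and 657 (1.85, SE 0.04, edgeR adjusted p = 1.4e-07). Both rose above aristolochic acid alone, by 0.79 and 0.34. SLC7A11, the cystine importer, rose by 1.15, and SLC38A2, a glutamine transporter, fell by 0.36. ATF3 rose by 1.63 with MYDGF 3 low, at 23.1 CPM against 52.2 and 55.3. Of 20 aminoacyl-tRNA synthetases, which charge tRNAs, 15 rose and 2 fell (median 0.70), with 1 lower without MYDGF 1, untreated 1 or untreated 3. YARS1 and SARS1 rose by 1.24 and 1.22, and QARS1 fell by 0.57.

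ATF4 acts at amino acid response elements. Of 27 members with a promoter, 7 held TGATGNAA on either strand. A match was found in 2.79% of tested genes with a promoter and in 3.62% of all promoters. All 7 with a match rose, and of the 20 without one 11 rose and 2 fell. Of all 309 tested genes with a match, 31.1% rose. FGF21, a stress hormone, and CHAC1, a glutathione-degrading enzyme, are shown as the 2 of largest rise with a match before a single start, chosen after values were seen, with matches in capitals.
FGF21 (chr19:48755274-48755523, plus strand): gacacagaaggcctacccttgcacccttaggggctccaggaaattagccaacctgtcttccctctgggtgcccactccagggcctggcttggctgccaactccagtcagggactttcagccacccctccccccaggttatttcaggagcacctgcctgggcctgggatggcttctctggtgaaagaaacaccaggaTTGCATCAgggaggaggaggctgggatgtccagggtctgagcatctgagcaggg
CHAC1 (chr15:40953221-40953470, plus strand): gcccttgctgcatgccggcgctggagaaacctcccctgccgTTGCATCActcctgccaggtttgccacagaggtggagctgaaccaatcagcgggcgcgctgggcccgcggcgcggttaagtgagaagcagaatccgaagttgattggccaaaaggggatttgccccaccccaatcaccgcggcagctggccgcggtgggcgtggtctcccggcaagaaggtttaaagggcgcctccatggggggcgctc
FGF21 changed by 2.33 and CHAC1 by 1.19.

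Genes of the endoplasmic reticulum mostly fell, apart from MYDGF itself. Of 30 tested, 17 fell and 2 rose (median -0.24), and 16 of the falls remained from aristolochic acid alone. The second riser was XBP1, a transcription factor of the unfolded protein response (0.82). The KDEL receptors return escaped proteins to the endoplasmic reticulum. KDELR3 (22:38468078-38483447, plus strand) went from 53.02, 47.57 and 55.99 CPM to 4.595, 8.587 and 4.805, against 3.30 on average with aristolochic acid alone. It fell by 3.12 and remained low in all MYDGF libraries, though called higher than with aristolochic acid alone (0.86). KDELR1 went from 255, 241 and 258 CPM to 153, 169 and 141 (-0.71), and was also called higher than with aristolochic acid alone (0.25). KDELR2 read 437, 446 and 451 CPM and 432, 416 and 389 with MYDGF, a change of -0.11 (edgeR adjusted p = 0.11) that was not called. Of the 27 members with a promoter, 8 held an ER stress element, CCAAT and CCACG with any 9 bases between them, on either strand. The element was found in 0.145% of tested genes with a promoter and in 0.0769% of all promoters. Of the 8 members with the element, 5 fell, 1 rose and 2 were not called. Of the 19 without it, 11 fell and 1 rose. The 3 fallers of largest change with a match before a single start are shown, chosen after values were seen, with matches in capitals.
ERO1B (chr1:236281959-236282208, minus strand): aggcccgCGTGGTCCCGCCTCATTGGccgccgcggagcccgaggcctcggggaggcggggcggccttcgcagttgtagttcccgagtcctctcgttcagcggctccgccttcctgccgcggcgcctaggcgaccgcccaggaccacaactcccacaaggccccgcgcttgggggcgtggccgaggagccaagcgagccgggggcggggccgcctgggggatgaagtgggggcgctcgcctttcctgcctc
CRELD2 (chr22:49918384-49918633, plus strand): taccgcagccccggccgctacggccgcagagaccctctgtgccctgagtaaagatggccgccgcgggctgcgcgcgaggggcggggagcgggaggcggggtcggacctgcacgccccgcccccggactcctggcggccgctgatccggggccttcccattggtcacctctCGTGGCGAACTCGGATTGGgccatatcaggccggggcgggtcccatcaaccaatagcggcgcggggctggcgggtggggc
HSP90B1 (chr12:103930160-103930409, plus strand): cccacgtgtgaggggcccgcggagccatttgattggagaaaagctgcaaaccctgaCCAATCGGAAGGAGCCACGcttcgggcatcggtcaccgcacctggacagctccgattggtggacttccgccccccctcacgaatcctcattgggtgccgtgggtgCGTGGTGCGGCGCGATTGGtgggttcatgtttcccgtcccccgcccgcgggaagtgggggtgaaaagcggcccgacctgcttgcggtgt
ERO1B, an oxidase of disulfide formation, fell by 0.82, CRELD2 by 0.68 and HSP90B1, the chaperone GRP94, by 0.42.

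Of 33 genes of sterol synthesis 23 fell (median -0.51, and -0.74 with aristolochic acid alone), and 22 of these falls remained. By edgeR none rose, with 1 at an unadjusted p under 0.05, 0 by DESeq2 and 0 by limma-voom. Without MYDGF 3, aristolochic acid 1 or aristolochic acid 4, 1 member was called higher. TM7SF2, a sterol reductase, went from 43.2, 39.2 and 40.6 CPM to 11.56, 14.60 and 10.95. HSD17B7 fell by 1.11. Of 25 members with a promoter 1 held TCACNCCAC and 19 held CCAAT. The CCAAT box was found in 42.8% of tested genes with a promoter and in 34.6% of all promoters. Of the 19 members with this box 12 fell, as did 3 of the 6 without it. Of 32 lysosomal genes 19 fell and 4 rose (median -0.44), all 19 remaining. GRN, progranulin, went from 284, 249 and 262 CPM to 96.3, 123 and 93.4, LIPA, acid lipase, fell by 1.13 and CTSZ, a cathepsin, by 1.11. TFEB, a regulator of lysosomal genes, rose from 7.05, 6.80 and 6.81 CPM to 16.3, 13.5 and 14.2 and was new.

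Of 32 genes of NRF2, glutathione and peroxide defence 14 fell and 3 rose (median -0.24, and -0.41 with aristolochic acid alone). Aristolochic acid alone had lowered 23, and 13 were higher between both treated groups. AKR1C3, an aldo-keto reductase, fell by 2.08, GPX3, a secreted glutathione peroxidase, by 1.08 and SOD2, the mitochondrial superoxide dismutase, by 1.03. SOD2 fell further than with aristolochic acid alone (-0.32). HMOX1, heme oxygenase, rose from 40.3, 42.1 and 36.1 CPM to 60.4, 62.1 and 52.8 although aristolochic acid alone had lowered it. Of 23 members with a promoter 7 held TGACNNNGC, and 4 of the 7 fell, as did 6 of the 16 without it. These letters were found in 19.3% of tested genes with a promoter and in 13.3% of all promoters. Of all 2132 tested genes with these letters 28.0% fell, near the share over all protein-coding genes. Of 8 metallothionein genes and their regulators tested, 7 fell (median -0.53), with 4 lower without untreated 3. By edgeR none rose, with 0 at an unadjusted p under 0.05, 0 by DESeq2 and 0 by limma-voom. MT1F and MT1X, which bind zinc, fell by 1.34 and 0.97. Of 16 heat shock genes 4 rose and 4 fell (median -0.08), near the 26.2% higher and 28.4% lower over all protein-coding genes. There were 2 lower without MYDGF 3, MYDGF 4 or untreated 1. HSPA2 fell from 193, 187 and 192 CPM to 44.1, 51.7 and 43.4, and HSP90AA1 rose by 0.49.

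Of 26 EGF ligands and MAP kinase feedback genes 15 rose and 4 fell (median 0.52). The phosphatase DUSP5 went from 106, 103 and 97.9 CPM to 231, 229 and 229, and SPRY4, an inhibitor of receptor signalling, rose by 1.63. The receptors ERBB2 and ERBB3 fell by 0.82 and 0.51, and EGF fell by 1.27 and was new. Of 28 immediate early and AP-1 genes 13 rose and 3 fell (median 0.56). FOSL1, an AP-1 subunit, went from 36.6, 36.0 and 31.1 CPM to 119, 111 and 153. MYC rose by 2.18, but MYDGF 1 stood at 66.2 CPM against 15.2 and 14.7, and the SE was 0.74. Without MYDGF 1 the MYC change was 1.09, and it was not called without MYDGF 1 or without any 1 untreated library (edgeR adjusted p from 0.0767 to 0.173), under limma-voom (adjusted p = 0.104) or with no filter on low counts (edgeR adjusted p = 0.0506). Of 32 YAP and TGF-beta targets 12 rose and 7 fell (median 0.01), against 26.2% higher and 28.4% lower over all protein-coding genes. CCN2, a matricellular YAP target, went from 96.1, 102 and 98.2 CPM to 197, 209 and 216, and F3, tissue factor, rose by 1.58, while LTBP1, which stores latent TGF-beta, fell by 1.56 and ID1 by 0.93.

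Epithelial, matrix and injury genes moved in both directions, and are read against 26.2% higher and 28.4% lower over all protein-coding genes. Of 35 genes of junctions, keratins and integrins 13 rose and 9 fell (median 0.10). Besides CLDN4, ITGB8, an integrin that activates TGF-beta, fell by 2.73 and JUP, plakoglobin, by 1.30, and KRT80 rose by 1.37. CLDN7, another claudin, rose by 1.44 from at most 1.82 CPM. Of 32 matrix and dedifferentiation genes 12 rose and 11 fell (median -0.06). TNC, tenascin C, rose from 49.9 ± 0.537 (SD, n = 3) CPM to 101, 98.4 and 107 and was new. COL6A2, a microfibrillar collagen, went from 226, 218 and 226 CPM to 82.6, 107 and 82.4, and LAMB1, a laminin chain, fell by 0.99. FN1, fibronectin, went from 36.9, 42.2 and 38.3 CPM to 29.5, 29.9 and 28.8 (-0.41, edgeR adjusted p = 0.016), against 12.8 CPM on average with aristolochic acid alone. The FN1 call was lost without MYDGF 1, MYDGF 4 or untreated 2 (edgeR adjusted p from 0.0538 to 0.0648). Of 21 tubular injury and repair markers 8 rose and 3 fell (median 0.04). LCN2, lipocalin 2, fell from 89.2, 88.1 and 102 CPM to 24.96, 36.85 and 29.68, and ANXA3 rose by 0.79. HAVCR1, kidney injury molecule 1, had 2 counts in all untreated libraries and 44 in the MYDGF group, a ratio of 20.8 (exact 95% interval 5.41 to 177, for counting error only). Without aristolochic acid 4, 5 members of this list were called lower.

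Proximal tubule function was little represented in this line. Of 43 genes 22 could be tested, and the organic anion transporter SLC22A6 and the urate transporter SLC22A12 had 0 counts in all 6 libraries. Of the 22, 10 rose and 3 fell (median 0.85), and 5 of the risers were near-silent. Over all protein-coding genes 26.2% were higher and 28.4% lower. Near-silent genes could pass the filter on low counts through the treated libraries alone, so the share of risers and the median may partly reflect that filter. SLC5A1, a sodium glucose transporter, had 1 count in untreated libraries and 174 in the MYDGF group. SLC7A9 and PDZK1 rose by 2.32 and 1.999, both under 5 CPM. DAB2, an endocytic adaptor, fell from 60.6, 63.1 and 67.0 CPM to 24.4, 29.8 and 26.7. GATM, an enzyme of creatine synthesis, fell by 0.78.

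The lists of RNA and protein machinery are read against 26.2% higher and 28.4% lower over all protein-coding genes. Of 26 SR proteins and hnRNPs, which steer splicing, 18 rose and 2 fell (median 0.37), with 1 lower without MYDGF 4. SRSF7 went from 96.4, 91.7 and 74.7 CPM to 225, 201 and 230, SRSF3 rose by 0.95 and TRA2B by 0.81. Of 27 genes of polyadenylation and termination 8 rose, near that share, and 6 fell (median 0.00). PCF11, a termination factor, rose by 0.53 and INTS1, an Integrator subunit, fell by 0.40. Of 50 cytosolic ribosomal proteins, which have many pseudogene copies, 16 rose and 4 fell (median 0.17, and -0.03 with aristolochic acid alone), with 2 lower without MYDGF 1, MYDGF 4, untreated 2, untreated 3 or aristolochic acid 6. RPL14 rose by 0.79. Of 31 proteasome genes 9 rose, also near it, and 6 fell (median 0.01), with 5 higher without MYDGF 3 or without any 1 untreated library. PSMC3, an ATPase of the base, rose by 0.87 and PSMB5, a catalytic subunit, fell by 0.71.

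**Figure D4:**
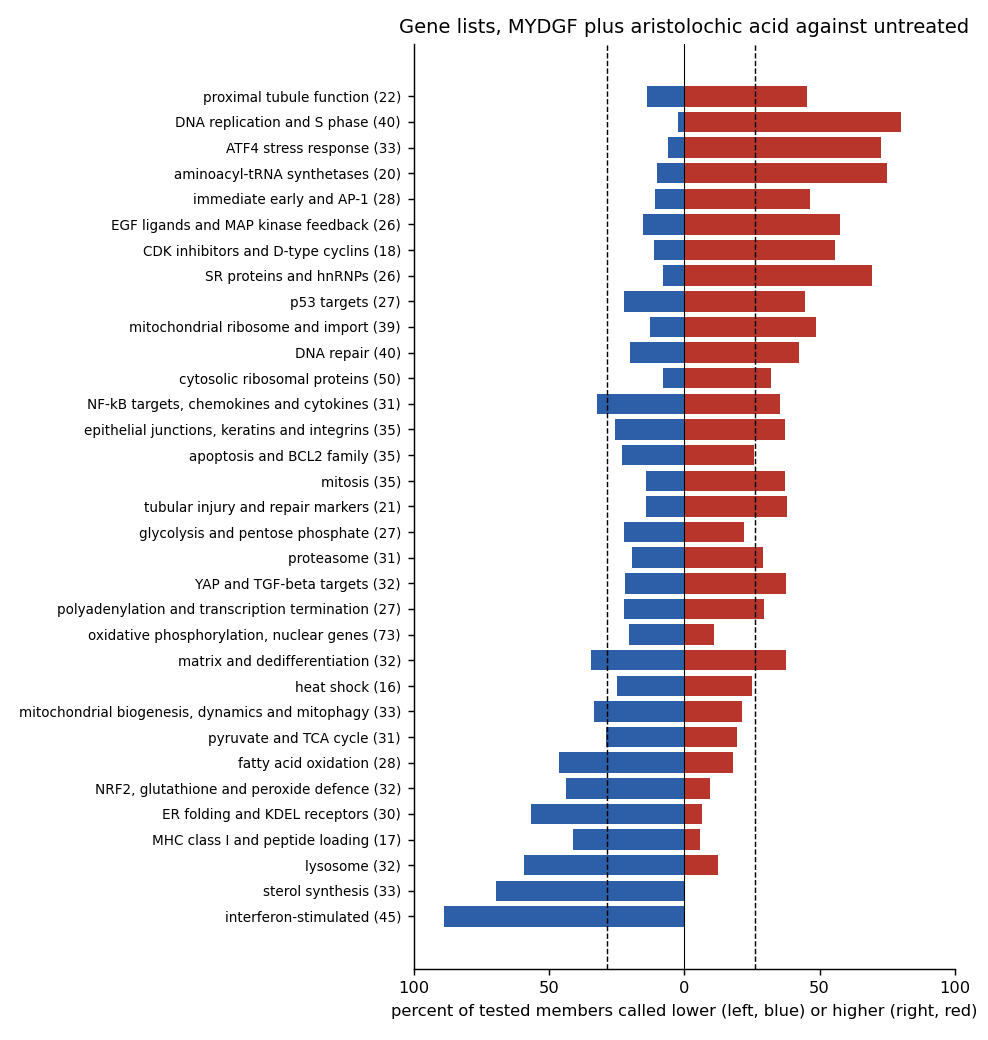
Share of the tested members of each gene list that was called lower (blue, to the left) or higher (red, to the right) in MYDGF plus aristolochic acid against untreated, in percent, for lists with at least 15 tested members (number tested in parentheses), ordered by median log2 fold change. Dashed lines mark the shares over all protein-coding genes tested, 28.4% lower and 26.2% higher; interferon-stimulated and sterol genes reach furthest to the left and DNA replication, aminoacyl-tRNA synthetase and ATF4 genes furthest to the right.

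Markers of other cell types were near the floor of detection or are also used by epithelial cells. Of 18 leukocyte markers 7 were tested and 5 had 0 counts in all 6 libraries; 5 rose and 1 fell, with 2 lower without MYDGF 1. The list summed to 21.6 to 29.7 CPM without treatment and 37.8 to 41.9 in the MYDGF group. ITGAM, an integrin of myeloid cells, rose by 2.94 from under 1 CPM, and CORO1A and LCP1, actin-binding proteins, rose by 2.14 and 1.82, while CD68 fell by 1.84. Of 14 endothelial markers 7 were tested and 4 rose, with summed levels of 29.2 to 33.4 and 28.3 to 33.5 CPM. PECAM1, ENG and ESAM rose by 1.85, 1.90 and 1.61 but stayed under 6 CPM. Of 13 fibroblast and mesangial markers 6 were tested, 3 rose and 1 fell, with summed levels of 199 to 229 and 266 to 294 CPM. Most of that sum was MCAM, at 169 to 199 and 227 to 255 CPM. Of 16 distal nephron and podocyte markers 7 were tested, 1 rose and 4 fell, with 2 lower without MYDGF 3, untreated 1 or untreated 3, and summed levels of 363 to 383 and 280 to 286 CPM. The part of other cells in any result was not tested.

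Near-silent genes were described by their position behind an active gene; no test of the difference was run. A gene under 1 CPM in untreated cells was placed after an active gene when its start lies within 100 kb past the end of a same-strand gene of at least 10 CPM. There were 1894 such protein-coding genes, of which 696 were tested and 452 rose at least 2-fold (23.9% of all, 452 of 696 tested). Without such a neighbour there were 4753, of which 286 were tested and 122 rose (2.57% of all, 122 of 286 tested). Within 10 kb, 179 of 440 rose (40.7% of all, 179 of 268 tested). Of the rest 6.36% of all rose, or 395 of 714 tested. Summed over the 1894 genes, levels were 377 to 381 CPM in untreated libraries, 1811, 1510 and 1518 in MYDGF 1, 3 and 4, and 2581, 4949 and 4023 in aristolochic acid 1, 4 and 6. Each MYDGF library lay above every untreated one and under every library with aristolochic acid alone. Over the other 4753 genes, the sums were 421 to 436, 724 to 809 and 716 to 1162 CPM, so there the MYDGF and aristolochic acid libraries overlapped. Genes this low could pass the filter on low counts through the treated libraries alone. They were also chosen as low in untreated cells, which favours higher treated levels. These shares and sums therefore describe and do not test. Counting did not state a strand setting.

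**Figure D5:**
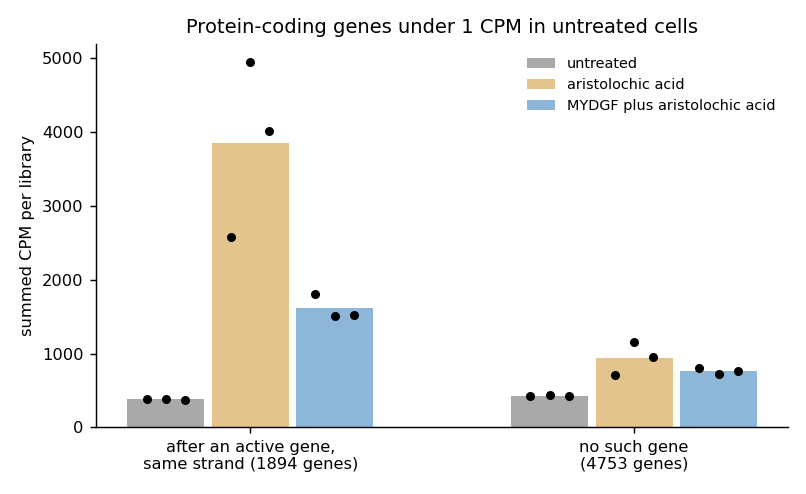
Summed CPM per library of protein-coding genes under 1 CPM in untreated cells, split by whether their start lies within 100 kb past the end of a same-strand active gene (1894 genes) or not (4753 genes). Bars are means over 3 libraries and black points single libraries, in grey for untreated, ochre for aristolochic acid and blue for MYDGF plus aristolochic acid; after an active gene the MYDGF libraries sit at 1510 to 1811 CPM, between both other groups.

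The largest near-silent rises had no counts in untreated cells. ARHGAP30, a GTPase-activating protein, had 168 counts in the MYDGF group, at least 52.8-fold higher than a floor of 3 counts over the untreated group. HDC, histidine decarboxylase, had 159 counts there. On the same floor TAC3, neurokinin B, was at least 48.4-fold and TMEM119 at least 39.0-fold higher. In these 4 genes every MYDGF library had at least 24 counts. They begin 9.4 to 46.8 kb after an active gene. RIMBP3B, a member of a near-identical family, had 123 counts but none in MYDGF 3, so it is uncertain; limma-voom did not call RIMBP3B (adjusted p = 0.138).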

How the data were processed

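RNA-seq of 9 HK-2 libraries was re-analysed from 1 table. It holds raw gene counts as the authors deposited them, with FPKM in further columns per the file headers. FPKM was not used, since for 12.3% of well-counted protein-coding genes the length it implies exceeds the gene's span. The submitters' processing notes name HISAT2, CASAVA 1.8, edgeR and SAMtools 1.3.1, and build mm10, although the identifiers are human; 92.9% matched GENCODE 29, and positions are read as GRCh38. Counting tool and strand setting, not given in the sources used here, leave overlapping and antisense genes that cannot be told apart.

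Libraries held 10876572 to 14254786 counts. They were fitted with edgeR 4.0.16 in R 4.3.3: filterByExpr (minimum count 10, minimum total 15), TMM, then glmQLFit and glmQLFTest over 3 groups of 3 libraries (6 residual degrees of freedom, biological coefficient of variation 16.4%), with Benjamini-Hochberg adjustment over all 18267 genes tested. Alternatives used DESeq2 1.42.0 and limma 3.58.1. The script was tested on simulated data. Libraries of a group differed by more than sampling noise. The 39 gene lists and the members were chosen with earlier results of these data known. Genes were named by rule: 13 set names, the 8 largest changes per direction among genes of at least 10 CPM without overlap and among newly changed ones, up to 3 called members per list and direction of at least 1 CPM, and the 5 largest near-silent rises; others are marked as named after values were seen. Some genes the rule names are not reported here. Floors are 3 counts over a group and intervals are exact at 95%.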

Additional observations from a re-analysis of the deposited data

How the results depend on the processing

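Counts of risers and fallers stayed within 1.5 times under DESeq2 (3598 and 3809), limma-voom (3534 and 3979), DESeq2 size factors (3621 and 3849), no filter on low counts (3243 and 3514) and a fit of the 6 libraries alone (3715 and 4134). Untreated and MYDGF libraries share numbers 1 and 3 only. The deviations of same-numbered libraries correlated at 0.0183 and 0.0114, against -0.0305 to 0.0168 for libraries of different numbers. These values do not settle whether the numbers pair libraries, and the aristolochic acid group was not compared in this way. With a replicate block 2255 genes rose and 2310 fell, 1406 and 1405 remained and 2 and 2 were new (the cause was not tested). A block in the 6 libraries alone, added after seeing the data, gave 2530 and 2690. At an adjusted p under 0.01 the new genes were 243 and 197, and without near-silent genes the at least 2-fold risers were 616. Leaving out 1 library moved risers between 3081 and 3941, fallers between 3150 and 4086, at least 2-fold risers between 1119 and 1292, at least 2-fold fallers between 908 and 1095, remaining risers between 2397 and 2961, remaining fallers between 2497 and 3067, new risers between 325 and 498 and new fallers between 255 and 433. Of 240 named genes 201 kept every call, 39 changed a call in some setting and 0 reversed. Of 1326 list counts 87 moved by over 1.5 times, 44 of them with a replicate block.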

Other observations

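In MYDGF plus aristolochic acid against untreated, 26.2% of protein-coding genes tested rose and 28.4% fell. Of 1336 long noncoding RNAs tested, 27.1% rose and 17.2% fell (edgeR, median 0.11), and of 683 processed pseudogenes 24.6% rose and 7.32% fell (median 0.15). Of 101 transcribed unprocessed pseudogenes 32 rose and 4 fell. Pseudogene reads can come from their parent genes, so these counts are uncertain. Of 422 protein-coding genes with a ZNF symbol, 127 rose, near the share over all protein-coding genes (median 0.21). Of the same genes 57 fell, a smaller share than the 28.4% over all protein-coding genes.

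By the span of the gene, the share of fallers was highest in the shortest and longest bins. Only protein-coding genes of at least 1 CPM in untreated cells were binned, so near-silent genes are left out. Of the genes binned, 2999 rose, 3883 fell and 5832 were not called. The shares per bin therefore do not have the 26.2% and 28.4% over all protein-coding genes as their background. Of 976 protein-coding genes under 5 kb 21.0% rose and 33.2% fell (median -0.16), and of 932 genes of at least 200 kb 19.7% rose and 33.6% fell (median -0.14). Between 50 and 100 kb 583 of 2335 genes rose and 666 fell (median -0.03).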
